A study of Mus musculus with 20 samples.

Results

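Irs1, Irs2, Insr, Igf1r, Ddit4, Txnip, Ccng2, Bcl6, Foxo1 and Foxo3 are 10 genes of insulin signalling and of the FOXO starvation programme. They were followed in Hepa1-6, a line of epithelial cells from a C57L mouse hepatoma, on 20 Affymetrix arrays. Cells were washed and kept in medium without growth factors for 4 h, then given 1 ng/ml TGFβ1 or left without it (untreated), and RNA was taken after 0, 1, 3, 6 and 10 h from 2 cultures per condition. The 20 arrays thus form 10 groups of 2, all from the same line and all deprived of growth factors; treated and untreated cells at 0 h are equivalent per the labels. The genes were chosen by name, as all probe sets that the platform annotation assigns to 1 of the 10 symbols alone. That gave 24 of the 34945 probe sets with a single gene, and 10 of 18193 genes; 1 further Foxo3 probe set was left out because it is shared with another gene.

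Insulin and insulin-like growth factors bind the receptors encoded by Insr and Igf1r, which phosphorylate the docking proteins encoded by Irs1 and Irs2 and so switch on PI3 kinase and AKT. AKT phosphorylates the transcription factors FOXO1 and FOXO3 and holds them out of the nucleus. In liver cells without insulin or growth factors, FOXO factors enter the nucleus and act on genes that slow the cell cycle, spare fuel and restore insulin sensitivity, and Irs2, Insr, Ccng2 and Bcl6 are among the genes they are known to bind. Ddit4 restrains the growth kinase complex mTORC1, and Txnip binds thioredoxin and limits glucose uptake. TGFβ1 acts by way of SMAD transcription factors, and in hepatocytes it is known for growth arrest and cell death.

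The upstream sequences of the members are shown first, because the genes share known regulators while their courses below differed. RefSeq (GRCm38.p6) gave 10 windows of 250 bases before a start site for 9 of the 10 members, 2 of them for Bcl6; Insr is named only. The motifs searched on both strands were the FOXO core GTAAACA, the insulin response core TGTTTTG that FOXO factors also bind, the E-box CACGTG of helix-loop-helix factors, the SMAD palindrome GTCTAGAC, the GC SMAD box GGCGCC and the CAGA box CAGACA. In the 4 windows below, written 5′ to 3′ on the gene's strand up to the base before the start site, capitals mark every match. Irs1 lies at chr1:82291440-82291689 (minus strand), Irs2 at chr8:11008930-11009179 (minus strand), Txnip at chr3:96557707-96557956 (plus strand) and Ccng2 at chr5:93267323-93267572 (plus strand).
Irs1: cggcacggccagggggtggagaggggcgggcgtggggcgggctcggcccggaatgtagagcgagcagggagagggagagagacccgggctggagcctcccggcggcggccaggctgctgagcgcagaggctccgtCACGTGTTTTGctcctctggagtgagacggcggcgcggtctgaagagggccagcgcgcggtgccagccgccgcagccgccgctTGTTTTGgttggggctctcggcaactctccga
Irs2: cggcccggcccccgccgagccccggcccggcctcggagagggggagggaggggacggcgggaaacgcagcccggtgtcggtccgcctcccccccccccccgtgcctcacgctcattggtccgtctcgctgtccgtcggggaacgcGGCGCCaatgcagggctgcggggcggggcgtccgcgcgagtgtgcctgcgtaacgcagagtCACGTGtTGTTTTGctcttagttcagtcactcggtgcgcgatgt
Txnip: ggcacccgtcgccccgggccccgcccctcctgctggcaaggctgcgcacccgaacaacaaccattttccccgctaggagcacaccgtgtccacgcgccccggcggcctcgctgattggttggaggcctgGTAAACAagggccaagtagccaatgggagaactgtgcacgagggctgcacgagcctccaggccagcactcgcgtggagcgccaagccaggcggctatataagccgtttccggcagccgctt
Ccng2: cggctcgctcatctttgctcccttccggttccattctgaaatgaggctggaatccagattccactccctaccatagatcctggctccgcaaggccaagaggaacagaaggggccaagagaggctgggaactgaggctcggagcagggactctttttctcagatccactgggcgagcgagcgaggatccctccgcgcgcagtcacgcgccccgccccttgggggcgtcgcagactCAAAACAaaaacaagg

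Both Irs windows held an E-box directly beside an insulin response core. In Irs1 the E-box spans bases −115 to −110 from the start site and the core −111 to −105, so that they overlap, and a second core lies at −32 to −26. In Irs2 the E-box spans −44 to −39 and the core −37 to −31, and a GC SMAD box lies at −105 to −100. Of 32851 annotated mouse promoters of the same length, 6.02% held the E-box, 5.56% the insulin response core and 97 (0.295%) both, at any distance. How many held the motifs side by side was not counted. Txnip held the FOXO core at −121 to −115, a motif found in 3.17% of promoters. Ccng2 held the insulin response core on the minus strand at −16 to −10, and the first of the Bcl6 start sites had an E-box at −60 to −55. The windows of Ddit4, Igf1r, Foxo1 and Foxo3 and of the second Bcl6 start held none of the 6 motifs. The SMAD palindrome (0.167% of promoters) and the CAGA box (17.1%) were in no member's window, and the GC SMAD box (9.59%) only in that of Irs2. A match is a description of letters, not of binding.

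**Figure D1:**
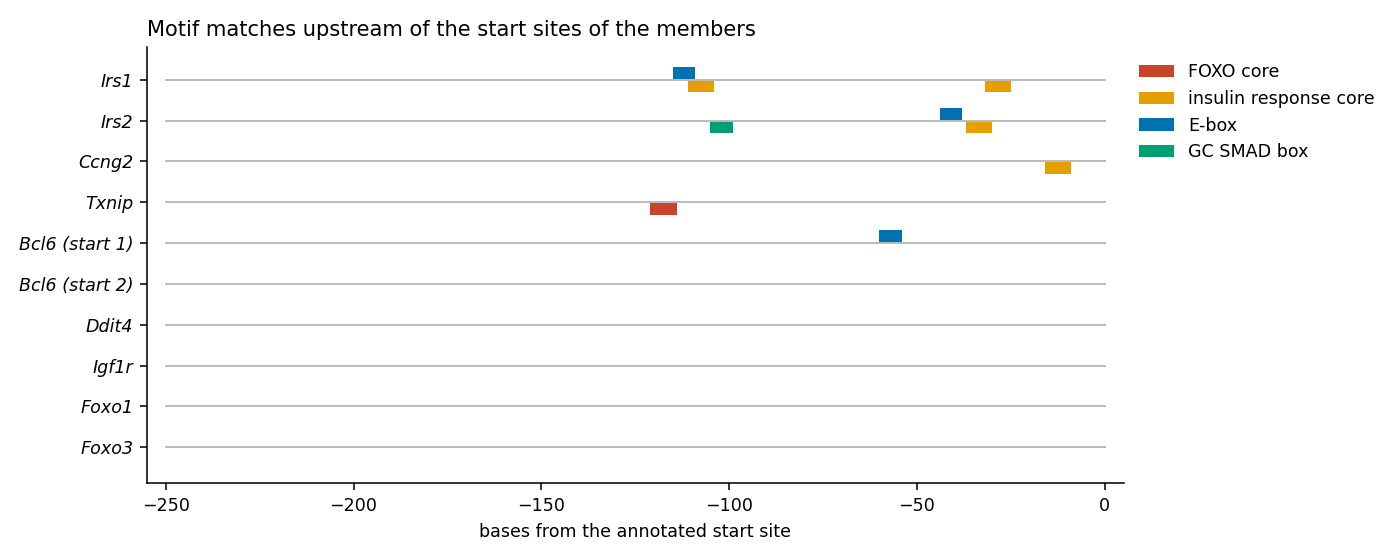
Motif matches in the 250 bases before the annotated start sites of 9 members, by distance from the start site in bases. Coloured blocks are matches, with E-boxes above the line and the other motifs below it. Irs1 and Irs2 each have an E-box beside an insulin response core, and 5 of the 10 windows have no match.

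All values are the deposited log2 expression values, and a difference of 1 is a 2-fold difference. Arrays of the same group correlated at r = 0.9958 to 0.9971 over probe sets. The treatment labels were checked on 3 feedback targets of TGFβ: Smad7, Skil and Klf10 were 5.48-, 4.82- and 11.9-fold higher in treated cells at 1 h and were not called at 0 h. The hepatocyte genes Alb and Afp were present, with means of 12.01 and 12.78, as in a liver-derived line, and 8 of 10 measured hepatocyte markers lay above the array medians of 5.15 to 5.21; Apob and Ahsg did not. All 4 measured cholangiocyte markers (Krt7, Krt19, Epcam and Sox9) were above the medians. Of 7 stellate cell and fibroblast markers 4 were above (Dcn at 13.42, Des at 6.65, Pdgfrb at 5.40 and Col1a2 at 5.24), and Col1a1, Col3a1 and Lrat were below. Of 6 macrophage markers Csf1r (6.63), Adgre1 (5.46) and Cd68 (5.23) were above, and Ptprc, Clec4f and Itgam below. Of 5 endothelial markers only Kdr (5.36) was above, with Pecam1, Cdh5, Stab2 and Tek below, and of 3 lymphocyte markers only Cd8a (5.99), with Cd3e and Cd79a below. At 1, 3, 6 and 10 h, 2, 3, 4 and 4 hepatocyte markers were lower in treated cells and 1, 3, 3 and 2 cholangiocyte markers higher, while 1 hepatocyte marker was higher at 3 h. Of the stellate cell and fibroblast markers 1, 2 and 1 were higher at 3, 6 and 10 h, and no macrophage, endothelial or lymphocyte marker was called at these times. The log2 of the summed level over the hepatocyte markers was 13.63 to 13.87 on the untreated arrays and 13.35 to 13.69 on the treated ones, and over the cholangiocyte markers 11.10 to 11.28 and 11.17 to 11.88. The part of these markers in the results below was not tested. In cell populations such as these, fewer cells with a transcript and less of it per cell cannot be told apart.

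TGFβ1 moved the members in opposite directions. Ddit4, Ccng2 and Bcl6 rose within 1 h, Txnip and Irs1 fell, and at 10 h Ddit4 and Txnip were no longer called while Irs1 was above its untreated level. At 0 h none of the 10 members, and none of 18193 genes, differed between the arms by limma's moderated test after Benjamini-Hochberg adjustment (740 genes had an unadjusted p under 0.05). At 1 h 5 members were called, 3 higher and 2 lower, against 2.24% of all genes. At 3 h 7 were called, 3 higher and 4 lower, against 15.3% of all genes. At 6 h 4 were called, 3 higher and 1 lower (15.7% of all genes), and at 10 h 4, all higher (9.14% of all genes). The count at 10 h was 2 without treated replicate 1 or either untreated replicate, and 1 with the mean of each gene's probe sets. The members were chosen with earlier results of these data known, so these shares describe the list and are no test of it. When single probe sets were tested, 6 of the members' 24 probe sets were called at 1 h (1.71% of all), 10 at 3 h (11.3%), 6 at 6 h (11.3%) and 3 at 10 h (5.83%).

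**Figure D2:**
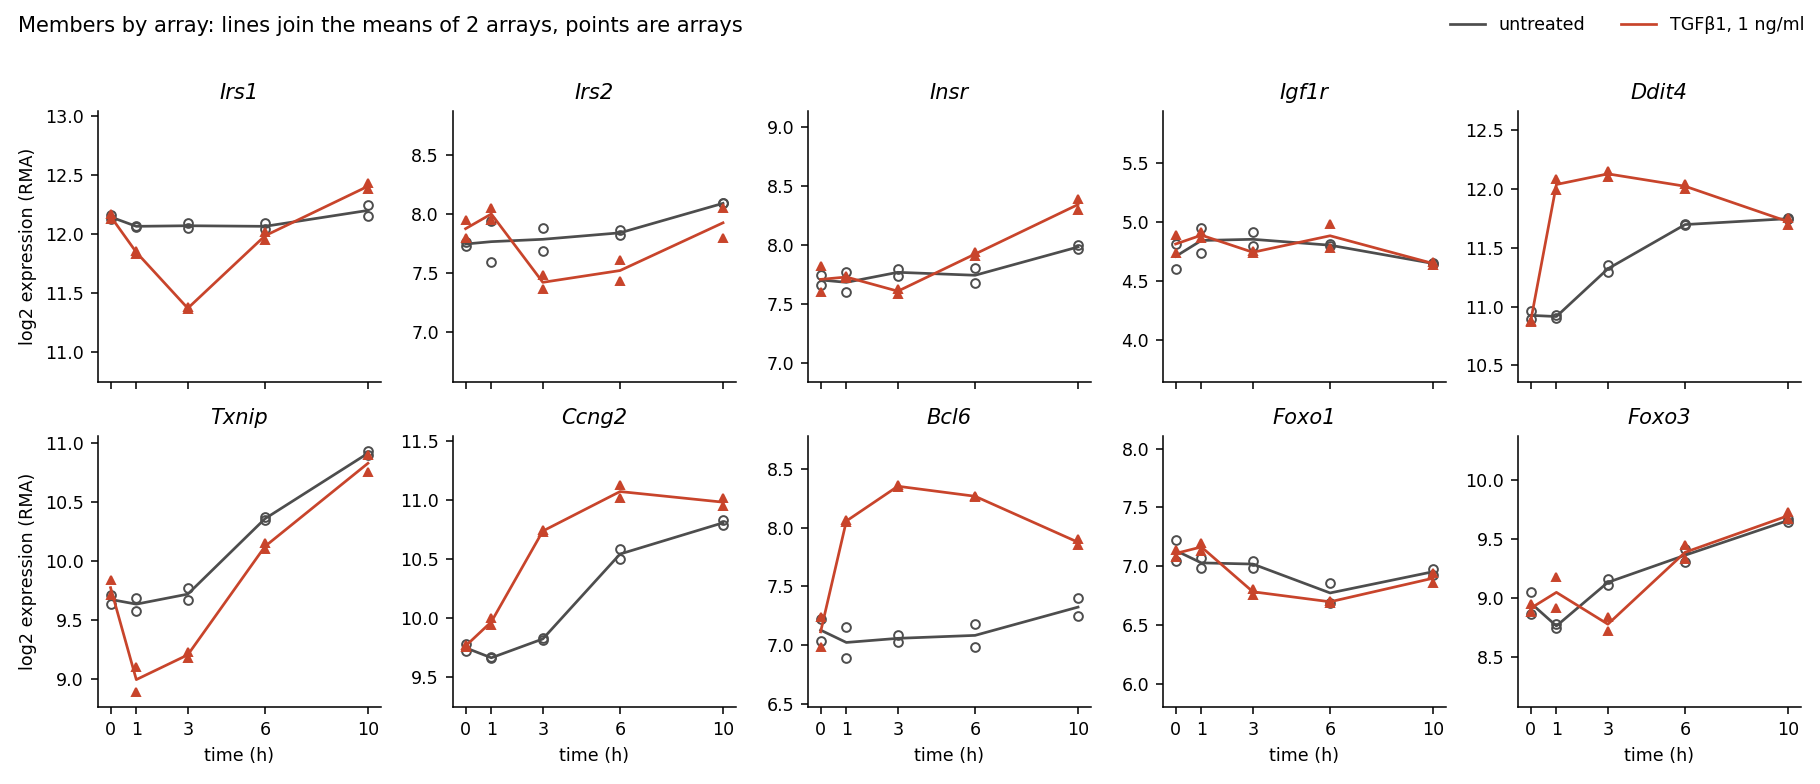
Deposited log2 expression (RMA) of the 10 members by time in hours, 1 panel per gene, with the same height of scale in every panel. Points are single arrays, lines join the means of 2, with treated cells in red and untreated cells in grey. Ddit4 and Bcl6 jump by 1 h in treated cells only, Irs1 dips at 3 h, and Txnip, Ccng2 and Foxo3 climb in both arms.

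Irs1, the docking protein through which insulin and IGF receptors reach PI3 kinase, showed a transient fall. In untreated cells all 10 arrays lay between 12.04 and 12.25. In treated cells the pairs were 12.13 and 12.17 at 0 h, 11.86 and 11.83 at 1 h, 11.36 and 11.38 at 3 h, 11.95 and 12.02 at 6 h, and 12.43 and 12.38 at 10 h. The treated arrays lay below both untreated arrays of the same time at 1, 3 and 6 h and above both at 10 h. The differences from untreated cells were −0.22 at 1 h (1.17-fold lower, adjusted p = 0.00248), −0.70 at 3 h (1.63-fold lower, 95% interval −0.79 to −0.62, adjusted p = 6.24e-11), −0.08 at 6 h (adjusted p = 0.249) and 0.21 at 10 h (1.16-fold higher, adjusted p = 0.00186). The difference became more negative by 0.48 between 1 and 3 h, and then rose by 0.62 to 6 h and by 0.29 to 10 h, each past the threshold (adjusted p = 1.34e-05, 3.89e-06 and 0.00742). The call at 1 h was lost without the variance trend (0.0635) and with the compared arrays alone (0.0526), and that at 10 h without untreated replicate 1 (0.0702). The step from 6 to 10 h was lost without the variance trend (0.107), without treated replicate 1 at 6 h (0.0538) and without untreated replicate 1 at 10 h (0.0714).

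Irs2, the other main docking protein of hepatocytes and a known FOXO target, has a single probe set and a smaller, later fall. Untreated arrays read 7.73 and 7.76 at 0 h, 7.59 and 7.94 at 1 h, 7.88 and 7.69 at 3 h, 7.86 and 7.82 at 6 h, and 8.09 and 8.09 at 10 h. Treated arrays read 7.95 and 7.80, 8.05 and 7.95, 7.36 and 7.48, 7.43 and 7.61, and 8.05 and 7.80 at the same times. Both treated arrays lay below both untreated arrays at 3, 6 and 10 h and above both at 1 h. They also lay above both at 0 h, where the arms are equivalent per the labels, so such separation alone is no sign of an effect. Irs2 was 1.29-fold lower at 3 h (−0.37, 95% interval −0.59 to −0.14, adjusted p = 0.0231); at 6 h the difference of −0.32 did not pass (adjusted p = 0.0502), nor did 0.24 at 1 h (0.465) and −0.17 at 10 h (0.455). The change of −0.60 from 1 to 3 h passed (adjusted p = 0.0171). The 3 h call was lost without treated replicate 1 (0.176), without untreated replicate 1 (0.249) and without the variance trend (0.0602). The change from 1 to 3 h was lost at 0.0597 without the trend and at 0.0774, 0.0799, 0.103 and 0.106 without replicate 1 of treated cells at 1 h, treated cells at 3 h, untreated cells at 1 h and untreated cells at 3 h.

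Among the receptors, Insr differed late and Igf1r was not called in any comparison. Insr, the insulin receptor, lay between 7.60 and 7.81 on the 8 untreated arrays from 0 to 6 h and at 8.00 and 7.97 at 10 h. In treated cells it read 7.60 and 7.82 at 0 h, 7.74 and 7.72 at 1 h, 7.63 and 7.59 at 3 h, 7.94 and 7.91 at 6 h, and 8.39 and 8.30 at 10 h. The treated arrays were above both untreated arrays at 6 and 10 h, below both at 3 h and among them at 1 h. At 10 h Insr was 1.29-fold higher (0.36, 95% interval 0.19 to 0.53, adjusted p = 0.00569); the differences at 1, 3 and 6 h were 0.05, −0.16 and 0.18 (adjusted p = 0.934, 0.245 and 0.162). This call rests on the brightest of 3 probe sets: the other 2, with means of 4.32 and 5.03 below the array medians, gave 0.13 and −0.04 at 10 h (adjusted p = 0.895 and 0.971), and the mean of all 3 gave 0.15 (0.567). It was also lost without treated replicate 1 (0.0916) and without untreated replicate 2 (0.0592). Igf1r, the IGF1 receptor, lay below the array medians on each of its 5 probe sets, whose means ran from 3.51 to 4.78. On the brightest, all 20 arrays lay between 4.60 and 4.98, the treated and untreated pairs of the same time overlapped at 1, 6 and 10 h and differed by −0.11 at 3 h, and the 95% interval of the treatment difference reached from −0.28 to 0.28 at 10 h, so that a small change could not have been seen here.

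Ddit4, also known as REDD1, restrains mTORC1 through the TSC complex and is induced by energy stress, low oxygen and glucocorticoids. It rose in both arms, and much sooner with TGFβ1. Untreated arrays read 10.89 and 10.96 at 0 h, 10.93 and 10.90 at 1 h, 11.29 and 11.35 at 3 h, 11.70 and 11.69 at 6 h, and 11.74 and 11.75 at 10 h. Treated arrays read 10.88 and 10.87, 11.99 and 12.08, and 12.10 and 12.15 at 0, 1 and 3 h, had a mean of 12.02 at 6 h, and read 11.69 and 11.75 at 10 h. Treated values exceeded both untreated arrays at 1, 3 and 6 h, and the arms overlapped at 10 h. The difference was 1.12 at 1 h (2.17-fold, adjusted p = 1.02e-13), 0.80 at 3 h (1.74-fold), 0.32 at 6 h (1.25-fold, adjusted p = 1.17e-05) and −0.02 at 10 h (95% interval −0.11 to 0.07, adjusted p = 0.849). It shrank at each step, by 0.31, 0.48 and 0.35 (adjusted p = 0.00197, 7.08e-05 and 0.00212), while the treated arrays stayed between 11.99 and 12.15 from 1 to 6 h and the untreated mean went from 10.92 to 11.70. From 6 to 10 h the treated mean went from 12.02 to 11.72 and the untreated mean from 11.70 to 11.74.

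Txnip, which binds thioredoxin, lowers glucose uptake and is driven by the glucose sensors MondoA and ChREBP, went the opposite way. Untreated arrays lay between 9.58 and 9.77 from 0 to 3 h and read 10.35 and 10.37 at 6 h, and 10.93 and 10.90 at 10 h. Treated arrays read 9.71 and 9.84 at 0 h, 9.10 and 8.89 at 1 h, 9.18 and 9.23 at 3 h, 10.10 and 10.15 at 6 h, and 10.90 and 10.76 at 10 h. At 1, 3 and 6 h both treated arrays lay below both untreated arrays, and at 10 h the upper treated value equalled the lower untreated one to 2 decimals. Txnip was 1.56-fold lower at 1 h (−0.64, 95% interval −0.78 to −0.50, adjusted p = 1.15e-06), 1.43-fold lower at 3 h (−0.52, adjusted p = 6.71e-06) and 1.18-fold lower at 6 h (−0.24, adjusted p = 0.0179), and the difference at 10 h was −0.09 (adjusted p = 0.573). Its size fell between 1 and 10 h (change of 0.55, adjusted p = 0.000944). The dimmer second probe set gave −0.34, −0.41, 0.16 and 0.07, none of them called, so the probe sets differ in sign at 6 h and the mean of both gave −0.04 (0.873). The 6 h call was also lost without the variance trend (0.0714), without treated replicate 1 (0.131) and without untreated replicate 1 (0.0655) or 2 (0.0971).

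Ccng2 encodes cyclin G2, an unusual cyclin that accompanies growth arrest and that FOXO factors induce. Untreated arrays read 9.72 and 9.78 at 0 h, 9.67 and 9.66 at 1 h, 9.83 and 9.82 at 3 h, 10.50 and 10.59 at 6 h, and 10.79 and 10.83 at 10 h. In treated cells the values were 9.76 and 9.77, 9.94 and 10.00, 10.73 and 10.75, 11.02 and 11.13, and 10.95 and 11.02. After 0 h every treated pair lay above the untreated pair of its time, and treated cells reached at 3 h a level that untreated cells passed between 6 and 10 h. The difference was 0.30 at 1 h (1.23-fold, adjusted p = 0.00045), 0.91 at 3 h (1.88-fold, adjusted p = 1.42e-11), 0.53 at 6 h (1.44-fold, adjusted p = 7.18e-08) and 0.17 at 10 h (1.13-fold, adjusted p = 0.0299). It widened by 0.61 from 1 to 3 h and then shrank by 0.38 and 0.36 (adjusted p = 4.85e-06, 0.0021 and 0.00497), the last step with 0.0534 without the variance trend. The second probe set gave 0.44, 1.03 and 0.61 at 1, 3 and 6 h, all called, and 0.18 at 10 h (0.442). The 10 h call was lost under 8 of 13 alternatives, with each of the 4 arrays left out (0.0666 to 0.235) among them.

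Bcl6, a zinc finger repressor that in liver opposes lipid genes and that FOXO factors are known to induce, gave the largest treatment difference of the members at 3, 6 and 10 h. Untreated arrays lay between 6.89 and 7.22 from 0 to 6 h and at 7.25 and 7.40 at 10 h. Treated arrays read 6.99 and 7.24 at 0 h, 8.05 and 8.06 at 1 h, 8.36 and 8.34 at 3 h, 8.26 and 8.27 at 6 h, and 7.85 and 7.90 at 10 h. From 1 h on, no treated array came within the untreated range. Bcl6 was 2.05-fold higher at 1 h (1.03, adjusted p = 4.65e-07), 2.44-fold at 3 h (1.29, adjusted p = 6.02e-09), 2.26-fold at 6 h (1.18) and 1.47-fold at 10 h (0.55, adjusted p = 0.001). The decline of the difference from 6 to 10 h, by 0.63, passed (adjusted p = 0.0189), but not under 8 of 17 alternatives. The other probe set, below the array medians on average, gave 0.55, 0.47, 0.56 and −0.03 (adjusted p = 0.0815, 0.0472, 0.0175 and 0.96), and with the mean of both the 10 h call was lost (0.26, adjusted p = 0.19).

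Of the FOXO genes themselves, Foxo3 was called lower in treated cells at 3 h and Foxo1 at no time. Foxo1, the main FOXO factor of insulin action in liver, lay between 6.69 and 7.22 on untreated and between 6.69 and 7.20 on treated arrays. It had no called treatment difference: it read 7.05 and 6.99 untreated against 6.81 and 6.76 treated at 3 h (−0.23, adjusted p = 0.0972), and the differences at 1, 6 and 10 h were 0.13, −0.08 and −0.05. Foxo3 read 8.78 and 8.75 untreated against 9.18 and 8.92 treated at 1 h, and 9.16 and 9.11 against 8.72 and 8.84 at 3 h. Its other untreated arrays read 8.87 and 9.05 at 0 h, 9.42 and 9.31 at 6 h, and 9.65 and 9.67 at 10 h, against 8.88 and 8.95, 9.33 and 9.45, and 9.73 and 9.67 in treated cells. At 1 and 3 h the arms did not overlap, with treated values above at 1 h and below at 3 h. The 1 h difference of 0.28 did not pass (adjusted p = 0.0606), though it did without treated replicate 2 (0.00657), with arrays centred on their medians (0.0436) and among genes above the median level (0.0391). At 3 h Foxo3 was 1.28-fold lower (−0.36, 95% interval −0.52 to −0.20, adjusted p = 0.00188), and its second probe set gave −0.43 (adjusted p = 0.00391). The change of −0.64 from 1 to 3 h passed (adjusted p = 0.000474); that of 0.38 from 3 to 6 h (adjusted p = 0.0467) was lost under 12 of 17 alternatives. At 6 and 10 h the differences were 0.02 and 0.04, with intervals of −0.14 to 0.18 and −0.12 to 0.20. The third Foxo3 probe set, below the array medians on average, gave −0.26 at 3 h and −0.31 at 6 h (adjusted p = 0.455 and 0.342).

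**Figure D3:**
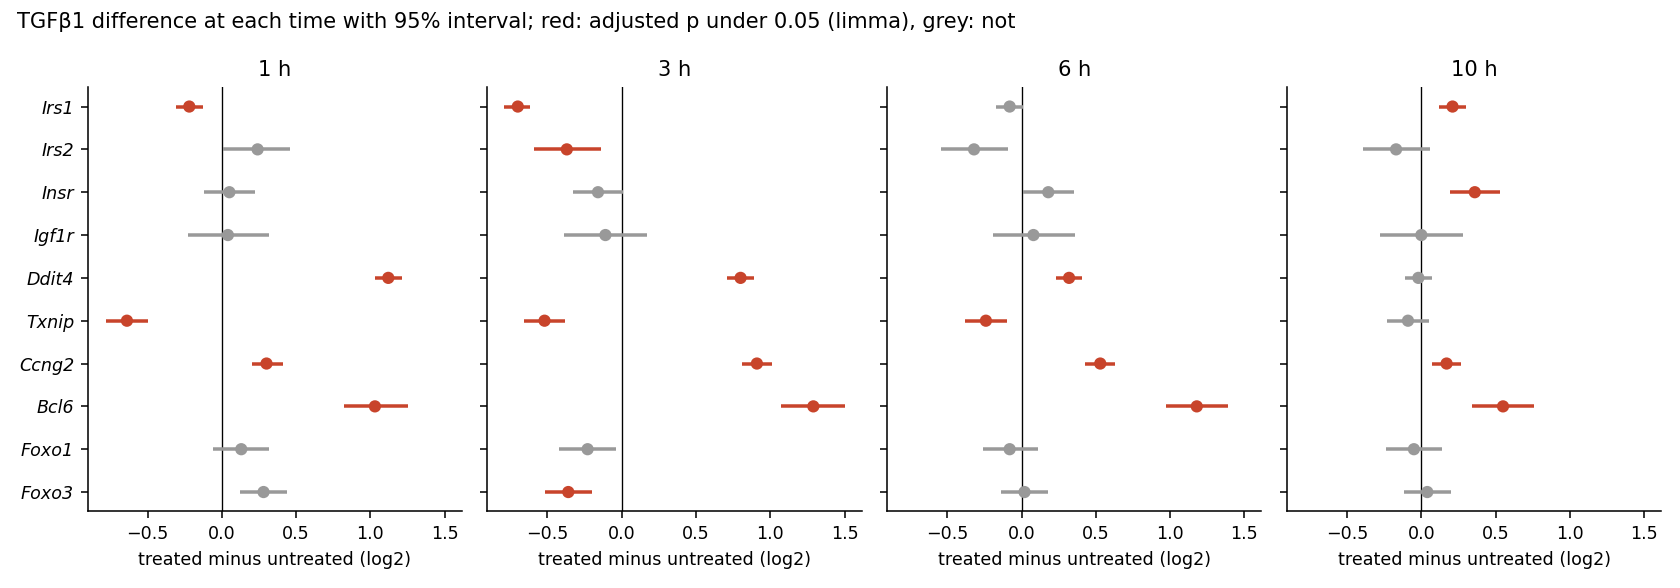
Treated minus untreated log2 difference of each member at 1, 3, 6 and 10 h, with unadjusted 95% intervals from limma; red marks an adjusted p under 0.05 and grey the rest. Ddit4, Ccng2 and Bcl6 lie to the right of 0 at 1, 3 and 6 h and Txnip to the left, and Irs1 moves from −0.70 at 3 h to 0.21 at 10 h.

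**Figure D4:**
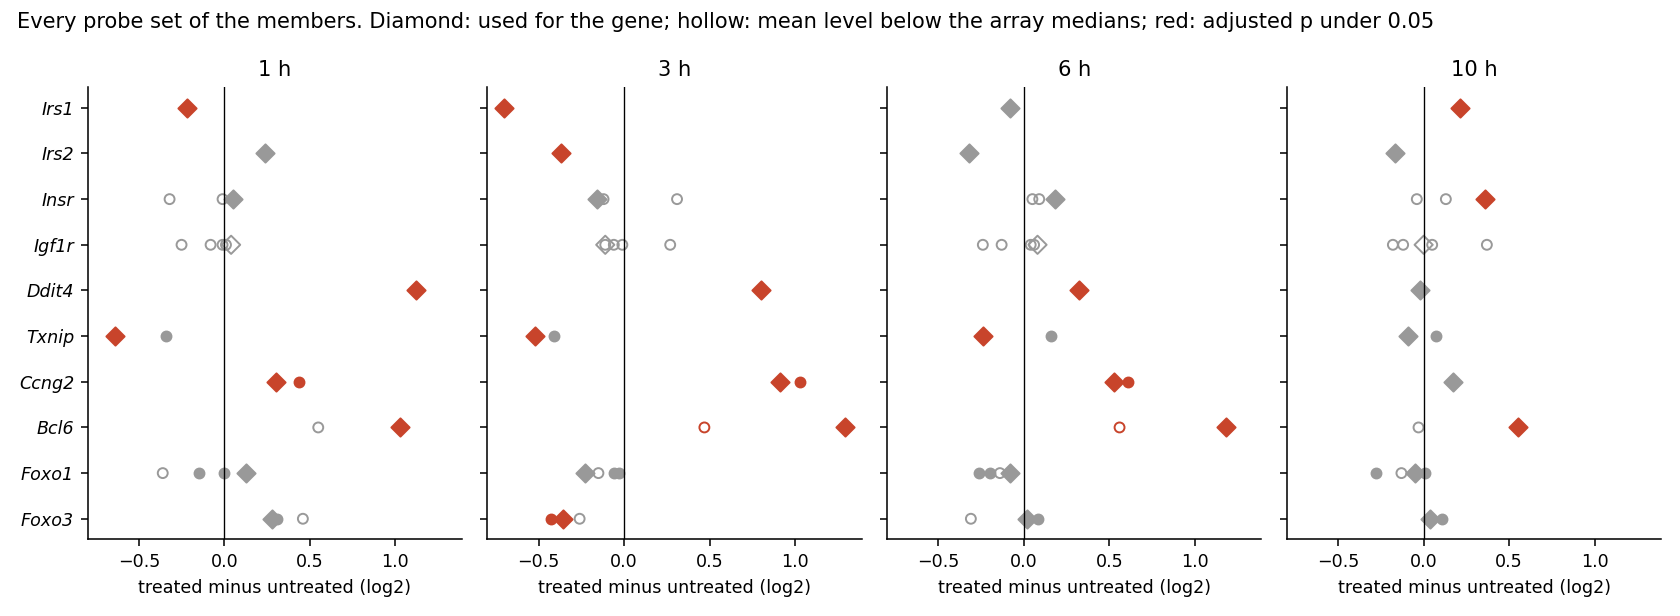
Treated minus untreated log2 difference of each of the 24 probe sets, by gene and time, each tested on its own over all 34945 probe sets. Diamonds are the probe sets used for the genes, circles the others, hollow marks lie below the array medians on average, and red marks an adjusted p under 0.05. The second probe sets of Ccng2 and Foxo3 follow the first. Those of Txnip and Bcl6 are closer to 0 at 1 and 3 h, and closer to 0 or of the other sign at 6 and 10 h. The third of Foxo3 gave −0.31 at 6 h against 0.02 for the first. Ccng2 at 10 h is not called on this scale.

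Over time without TGFβ1, 6 members rose by 10 h and none fell. Txnip was 2.36-fold higher than at 0 h (1.24, adjusted p = 3.93e-11), Ccng2 2.09-fold (1.06), Ddit4 1.76-fold (0.82) and Foxo3 1.63-fold (0.70, adjusted p = 5.18e-07). Irs2 was 1.27-fold higher (0.35, adjusted p = 0.0196) and Insr 1.21-fold (0.28, adjusted p = 0.0133). The Irs2 call was lost without any one of the 4 arrays (0.0654 to 0.1), and that of Insr without untreated replicate 2 at 0 h (0.114) or replicate 1 at 10 h (0.0862). Called members numbered 0 at 1 h (0.187% of all genes; Foxo3 alone had an unadjusted p under 0.05 in limma's test), 1 at 3 h (Ddit4; 8.16% of genes), 5 at 6 h (20.7%) and 6 at 10 h (26.1%). Ddit4 was the earliest, 1.31-fold higher at 3 h. At 6 h Ddit4, Txnip, Ccng2 and Foxo3 were 1.71-, 1.61-, 1.73- and 1.32-fold higher, and Foxo1 was 1.28-fold lower (−0.36, adjusted p = 0.00675), a call lost with the mean of its 4 probe sets (−0.14, adjusted p = 0.301) and without untreated replicate 1 at 0 h (0.111) or replicate 2 at 6 h (0.103). Bcl6 was not called at any time without TGFβ1, with 0.20 at 10 h (95% interval −0.01 to 0.41).

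Within treated cells, set against treated cells at 0 h, 5 members were called at 1 h (3.51% of all genes), 7 at 3 h (15.8%), 8 at 6 h (24%) and 7, all higher, at 10 h (28%). The calls of Ccng2 at 1 h, Irs2 at 3 h, Irs1 at 6 h and Irs2 at 6 h were lost under 6, 2, 2 and 3 of 14 alternatives. By 10 h Ccng2 was 2.33-fold, Txnip 2.07-fold, Ddit4 1.79-fold, Foxo3 1.72-fold, Bcl6 1.7-fold, Insr 1.56-fold and Irs1 1.19-fold above its own 0 h level. For Insr this call was lost with the mean of its 3 probe sets (0.64 became 0.22, adjusted p = 0.202). Txnip first fell 1.72-fold at 1 h and then rose to 1.27-fold above 0 h at 6 h (0.0889 with the mean of its probe sets). Irs1 fell 1.72-fold by 3 h. Foxo1 was 1.25-fold lower at 3 h (−0.33, adjusted p = 0.0152) and 1.33-fold lower at 6 h (−0.41, adjusted p = 0.00163), close to the −0.36 of untreated cells at 6 h; the 3 h call was lost under 5 of 14 alternatives, without treated replicate 2 at 0 h (0.109) or replicate 1 (0.0534) or 2 (0.0972) at 3 h among them. The rises of Irs1 at 10 h and of Bcl6 had no called counterpart in untreated cells.

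The change of the treatment difference between times was called for 5 members from 1 to 3 h (6.41% of all genes), 4 from 3 to 6 h (4.55%), 4 from 6 to 10 h (2.44%) and 3 from 1 to 10 h (4.02%). From 1 to 10 h those were Ddit4 (−1.14), Irs1 (0.43) and Txnip (0.55); for Bcl6 the change of −0.48 did not pass (adjusted p = 0.069). For Ccng2 it was −0.13 (95% interval −0.28 to 0.01), since its difference peaked in between.

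The groups of each gene were also put in order of level. Irs1 was lowest in treated cells at 3 h (mean 11.37) and highest in treated cells at 10 h (12.41), and these groups, like treated cells at 1 and 6 h, stood clear of their neighbours in the order. Bcl6 held its 4 highest places in treated cells at 10, 1, 6 and 3 h (7.88, 8.06, 8.26 and 8.35), with no overlap between neighbours, above untreated cells at 10 h (7.33). Ddit4 was highest in treated cells at 3 h (12.12), clear of the next 2 groups, treated cells at 1 h and at 6 h (12.03 and 12.02), which overlapped each other. Txnip ranged most widely, from 8.99 in treated cells at 1 h to 10.91 in untreated cells at 10 h, a range of 1.92. Of the 9 neighbouring pairs in each order, 1 overlapped for Ccng2, 3 for Txnip, 4 each for Irs1, Ddit4 and Bcl6, 5 for Foxo3, 6 each for Insr and Foxo1, 7 for Irs2 and 8 for Igf1r.

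Other parts of insulin and IGF signalling were read from a list of 27 genes, 24 of them measured. At 1, 3, 6 and 10 h, 2, 4, 6 and 4 were higher in treated than in untreated cells and 0, 2, 2 and 0 lower. List medians of the difference were 0.05, 0.02, 0.02 and 0.07 against −0.01, −0.02, −0.03 and −0.00 over all genes. Over all genes 2.24%, 15.3%, 15.7% and 9.14% were called at these times. Sgk1, a kinase close to AKT that also phosphorylates FOXO factors, was 1.69-fold higher at 1 h (11.27 and 11.11 against 10.46 and 10.41) and 1.8-fold at 6 h, and was called at all 4 times. Trib3, a pseudokinase that binds AKT, was 1.63-fold higher at 1 h (0.70, adjusted p = 1.23e-09) and was called against untreated cells at no other time. Phlpp1, a phosphatase of AKT, was 1.77-fold higher at 3 h and Gab1, another docking protein, 1.5-fold. Gab1 read 8.43 and 8.41 against 7.93 and 7.73 then, and 8.16 and 8.33 in untreated cells at 0 h. At 6 h Gab1 was called higher than in untreated cells, but lower than at 0 h in both arms. Ptpn1, the phosphatase that acts on the insulin receptor, was 1.33-fold higher at 6 h. Grb14, an adaptor that inhibits the insulin receptor, was 1.38-fold lower at 3 h (0.0617 with the mean of its probe sets) and 1.58-fold lower at 6 h (−0.66, adjusted p = 2.79e-08). Grb14 read 8.31 and 8.35 against 9.02 and 8.96 at 6 h, and 8.38 and 8.47 in untreated cells at 0 h. Without TGFβ1 it had risen 1.59-fold by 10 h (0.67, but 0.22 with adjusted p = 0.101 for the mean of its probe sets). The PI3 kinase subunit genes Pik3cb (−0.26 at 3 h) and Pik3r2 (0.39 at 6 h and 0.46 at 10 h) and Akt2 (−0.27 at 6 h) were called but each lost the call without 1 array, at up to 0.258, 0.147 and 0.0916; for Pik3r2 at 10 h these were treated replicate 1 (0.0755) and untreated replicate 2 (0.0958). Without 1 array the 6 higher genes at 6 h became 3 (untreated replicate 2), and the 4 at 10 h became 1 (treated replicate 1) or 2 (either untreated replicate). The 2 lower genes became 1 at 3 h without treated replicate 2 or either untreated replicate, and 1 at 6 h without untreated replicate 1.

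In the mTORC1 arm, downstream of AKT and the point where the product of Ddit4 acts, 22 of 23 listed genes were measured. At 3 h 10 were lower and 1 higher in treated than in untreated cells. The list median was −0.16 against −0.02 over all genes, of which 15.3% were called. At 1, 6 and 10 h 1, 4 and 1 were lower and 0, 1 and 0 higher. List medians were then 0.01, −0.12 and −0.01, with 2.24%, 15.7% and 9.14% of all genes called. Deptor, an inhibitor that binds the kinase itself, was 2.12-fold lower at 6 h (9.34 and 9.47 against 10.47 and 10.51, adjusted p = 2.63e-12) and 1.78-fold at 10 h. Ddit4l, the close relative of Ddit4, was 1.25-, 1.43- and 1.21-fold lower than in untreated cells at 1, 3 and 6 h, against the direction of Ddit4. Against treated cells at 0 h, Ddit4l was called lower at 1 and 3 h but not at 6 h. Of the sestrins, which inhibit mTORC1 when amino acids are scarce, Sesn3 was 1.48-fold higher at 3 h and 1.45-fold at 6 h. Sesn1 was 1.36-fold lower at 3 h and 1.22-fold at 6 h (0.753 with the mean of its probe sets at 6 h). Sesn2 was 1.66-fold lower at 3 h, a call lost without treated replicate 2. Flcn, a regulator of the Rag proteins that bring mTORC1 to the lysosome, was 1.44-fold lower at 3 h. The genes that were lower thus include inhibitors as well as parts of the pathway. Without TGFβ1, 7 rose and 2 fell by 10 h (26.1% of all genes called; list median 0.18, all genes 0.03), with Sesn3 1.56-fold and Fnip1 1.47-fold higher.

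Of 38 other FOXO targets and starvation genes, 37 were measured, and Sesn1 and Sesn3 are on this list too. At 1, 3, 6 and 10 h, 6, 8, 7 and 6 were higher in treated than in untreated cells and 1, 5, 6 and 4 lower. List medians of the difference were 0.01, 0.01, 0.04 and 0.12 against −0.01, −0.02, −0.03 and −0.00 over all genes. Of those lower at 10 h, Gadd45a and Bnip3 were called higher at 10 h than at 0 h within treated cells. The shares called over all genes were 2.24%, 15.3%, 15.7% and 9.14%. Bcl2l11, which encodes the death factor BIM, was 3.94-fold higher at 1 h (11.28 and 11.12 against 9.24 and 9.20, adjusted p = 3.84e-13) and still 1.49-fold higher at 10 h. Klf9 was 2.57-fold higher at 1 h and the CDK inhibitor Cdkn1b 1.49-fold, and neither was called against untreated cells later. Fbxo32, a ubiquitin ligase of muscle atrophy, was 1.9-fold higher at 3 h, 2.57-fold at 6 h and 1.79-fold at 10 h. Pdk4, a kinase that spares glucose by holding back pyruvate dehydrogenase, was lower in treated than in untreated cells at all 4 times. The gap was largest at 3 h (2.44-fold, 7.27 and 7.42 against 8.71 and 8.55). Against treated cells at 0 h Pdk4 was called lower at 1, 3 and 6 h but not at 10 h, and without TGFβ1 it had risen by 10 h. The BH3 gene Bbc3 was 1.83-fold lower than in untreated cells at 3 h and 1.28-fold at 6 h. The 6 h call was lost without replicate 2 of treated or of untreated cells. Against treated cells at 0 h, Bbc3 was called lower at 3 h but not at 6 h. Bnip3, a mitophagy receptor, was the largest riser of the list without TGFβ1, 6.38-fold by 10 h (12.41 and 12.37 against 9.86 and 9.57), and was 1.51-fold lower in treated cells at 6 h and 1.38-fold at 10 h. Angptl4 fell 1.66-fold without TGFβ1 by 10 h and was 1.44-fold higher in treated cells then (0.0616 with the mean of its probe sets). By 10 h without TGFβ1 15 rose and 3 fell, with a median of 0.25 against 0.03 over all genes, of which 26.1% were called. Leaving out 1 array moved 4 counts: at 3 h 8 higher became 5 (without untreated replicate 2) and 5 lower became 3 (treated replicate 2), at 6 h 7 higher became 4 (treated replicate 1), and at 10 h 6 higher became 3 (treated or untreated replicate 2).

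Among 8 genes of the MondoA and ChREBP factors and the thioredoxin system, which act on and with Txnip, none was called at 1 h (2.24% of all genes called). At 3 h 3 were lower in treated than in untreated cells (15.3%), at 6 h 2 were lower and 1 higher (15.7%), and at 10 h 2 were lower (9.14%). The list medians at 1, 3, 6 and 10 h were 0.03, −0.14, 0.00 and −0.10, against −0.01, −0.02, −0.03 and −0.00 over all genes. Mlxip, which encodes MondoA, was 1.37-fold lower than in untreated cells at 3 h (−0.45, adjusted p = 0.00108). Its partner Mlx was 1.28-, 1.34- and 1.27-fold lower than in untreated cells at 3, 6 and 10 h, the last lost without treated replicate 1 (0.108) or untreated replicate 1 (0.204). Txn2, the mitochondrial thioredoxin, was 1.23-fold lower than in untreated cells at 6 h (9.20 and 9.26 against 9.56 and 9.51), and untreated cells at 0 h read 9.21 and 9.21. Arrdc4, a relative of Txnip and like it a MondoA target, was lower at 10 h (−0.29, adjusted p = 0.0428), and without each of the 4 arrays in turn the adjusted p was 0.106 to 0.258. Txnrd1, thioredoxin reductase, was 1.17-fold lower at 3 h and 1.14-fold higher at 6 h; the first call was lost without treated replicate 2 (0.0578) and with the mean of its probe sets (0.848), the second without replicate 2 of treated (0.111) or untreated cells (0.256). Without treated or untreated replicate 1 the count at 10 h was 0, and without replicate 2 of either arm the 1 higher gene at 6 h was not called.

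**Figure D5:**
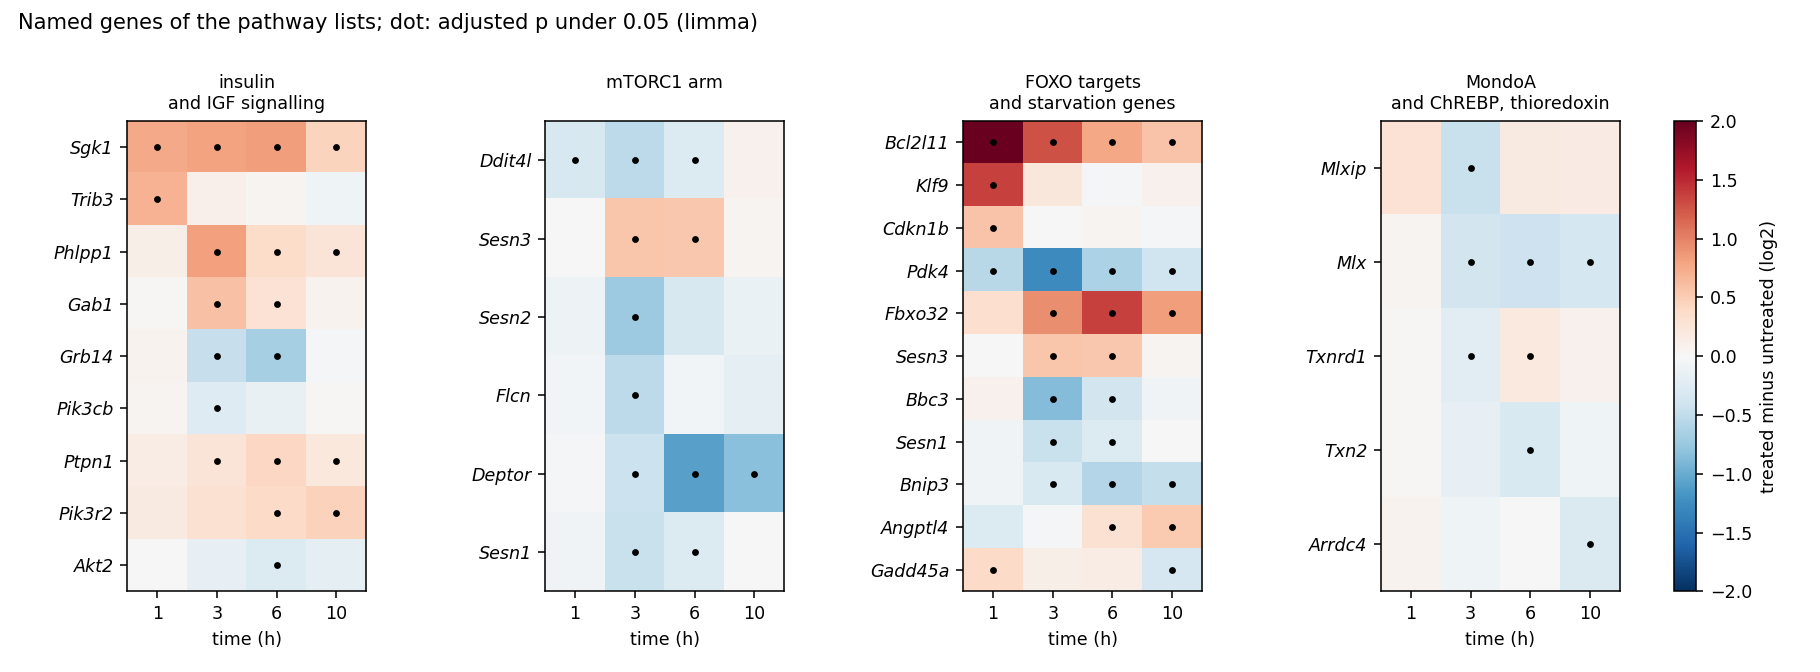
Treated minus untreated log2 difference at 1, 3, 6 and 10 h for the named genes of the 4 lists, on a colour scale from −2 (blue) to 2 (red); dots mark an adjusted p under 0.05 by limma. Bcl2l11 and Klf9 are reddest at 1 h, Pdk4 is bluest at 3 h and Deptor at 6 h, and Sesn3 is opposite to Sesn1.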

How the data were processed

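RNA from 20 cultures of Hepa1-6 cells was measured on Affymetrix arrays, 2 biological replicates in each of 10 groups. The deposited values are log2 expression made with RMA, per the submitters' processing notes; version and settings: not given in the sources used here. They ran from 1.44 to 14.7 and were used without further scaling. RMA normalizes arrays to each other, which hides any change in total RNA per cell.

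The platform annotation gives 34945 of 45037 probe sets a single gene, 932 several and 9160 none. Symbols were updated through Entrez IDs to RefSeq; 48 were not in it and were kept. Each of 18193 genes was read from its single-gene probe set with the highest mean over all arrays. Group means were fitted to all 20 arrays (10 residual degrees of freedom) with limma 3.58.1 in R 4.3.3 (lmFit, eBayes with a trend on the mean level) and compared by contrasts. P-values were adjusted by Benjamini-Hochberg over all genes within each comparison, with a threshold of 0.05, and the script was tested on simulated data. Two-sided tests were used throughout. With 2 arrays per group, the number of arrays limits the precision: the median standard error of a treated against untreated difference was 0.126.

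All 10 members are named, and of each gene list and comparison up to 3 genes with the largest called rise and up to 3 with the largest called fall whose arrays did not overlap. The members and lists were chosen with earlier results of these data known. Promoter windows were matched by symbol. Alternatives were other uses of a gene's probe sets, other normalizations, a filter on dim genes, no variance trend, the compared arrays alone, array weights, a replicate block, all 4 arrays at 0 h as the reference, and each array left out. The effect of these alternatives on the list counts was added after seeing the data.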

Additional observations from a re-analysis of the deposited data

Results flagged for a closer look

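Changes of the treatment difference between times were called by limma's test of the change itself with Benjamini-Hochberg adjustment over all genes. Values are treated minus untreated at the later time less the same at the earlier time. Over all genes 6.41%, 4.55%, 2.44% and 4.02% were called from 1 to 3 h, 3 to 6 h, 6 to 10 h and 1 to 10 h. Of the changes below, Irs2 from 1 to 3 h and Foxo3 from 3 to 6 h lost the call under 5 and 12 of 17 alternatives. From 6 to 10 h Irs1, Ccng2 and Bcl6 lost it under 3, 1 and 8 of 17. From 1 to 3 h the difference moved by −0.48 for Irs1, −0.60 for Irs2, −0.31 for Ddit4, 0.61 for Ccng2 and −0.64 for Foxo3 (adjusted p = 1.34e-05, 0.0171, 0.00197, 4.85e-06 and 0.000474). From 3 to 6 h it moved by 0.62 for Irs1, −0.48 for Ddit4, −0.38 for Ccng2 and 0.38 for Foxo3 (adjusted p = 3.89e-06, 7.08e-05, 0.0021 and 0.0467). From 6 to 10 h it moved by 0.29 for Irs1, −0.35 for Ddit4, −0.36 for Ccng2 and −0.63 for Bcl6 (adjusted p = 0.00742, 0.00212, 0.00497 and 0.0189). Over the whole span from 1 to 10 h it moved by 0.43 for Irs1, −1.14 for Ddit4 and 0.55 for Txnip (adjusted p = 6.6e-05, 7.74e-11 and 0.000944). Irs1 was the member whose treatment difference was called lower at 1 and 3 h and called higher at 10 h.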

How the results depend on the processing

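Of 75 called member results, 53 stayed called in the same direction under every alternative run, 22 lost the call under at least 1, and none reversed; 6 uncalled results were called under an alternative. In the 10 h treatment comparison, the 4 called members became 1 with the mean of a gene's probe sets and 2 to 3 with 1 array left out (2 without treated replicate 1 or either untreated replicate). The 4 members called for the change from 6 to 10 h became 1 without the variance trend and 2 to 4 with 1 array left out (2 without treated replicate 1 at 6 h). Among the other genes named by the rule, Sqstm1, an autophagy receptor, reversed: −0.27 at 10 h without TGFβ1 became 0.05 (adjusted p = 0.835) with the mean of its probe sets. Same-numbered arrays did not deviate together (r = 0.0497, 0.0817, −0.0625, 0.0927 and 0.00322 at 0, 1, 3, 6 and 10 h). This check cannot tell whether same-numbered cultures were handled as pairs. Every group holds 1 array of each number, so a replicate block cannot change a difference, only the estimate of its spread. With the block the members called at 1, 3, 6 and 10 h were 5, 7, 4 and 4, as without it. The counts were the same in all 17 comparisons. The causes of these shifts were not tested. Probe sets below the array medians, among them all 5 of Igf1r, limit what can be said of those genes.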

Other observations

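The course of each member over the 10 group means was set against 3950 other genes by Pearson's r, as a description over means that share arrays and times. The group means of these genes ranged over at least 0.5 and lay above the array medians on average. Bcl6 was most like Rhob (r = 0.983), a small GTPase gene, and Skil (r = 0.982), a feedback repressor of SMAD signalling. Txnip was most like Tent5a (r = 0.991) and Cybc1 (r = 0.967), and Ccng2 most like the antiproliferative gene Btg1 (r = 0.988) and Heca (r = 0.979). Ddit4 came closest to Tcim (r = 0.96) and to Fosl2 (r = 0.952), a subunit of AP-1. Insr came closest to Cdh2 (r = 0.978), which encodes N-cadherin, and to Avl9 (r = 0.976). For Irs1 the nearest genes were Esyt1 (r = 0.971) and Pard6b (r = 0.967), for Irs2 9030619P08Rik (r = 0.942) and Trim24 (r = 0.922), and for Foxo3 Susd6 (r = 0.982) and Retreg3 (r = 0.981). The nearest genes depended on the measure. By Spearman's rho over the same means, the nearest pair differed for every member, and of the genes named here only Rhob for Bcl6 stayed in it. For Insr the rho of Cdh2 and Avl9 was 0.758 and 0.636, with Apaf1 and Lif nearest by rho, and for Irs2 that of Trim24 was 0.661. Igf1r and Foxo1 ranged over less than 0.5 and were not compared.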
